A study of Mus musculus with 12 samples.

Results

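The genes described here are the mouse major urinary protein genes (symbols Mup followed by digits) and the serpin genes of the families Serpina and Serpinb, read against a list of H4K20me3 domains from embryonic stem cells. They were chosen by symbol alone among the RefSeq protein-coding genes of chromosomes 1 to 19 on the build GRCm38.p6. The rule gave 73 genes of 20560, namely 22 Mup genes on chromosome 4, 23 Serpina genes on chromosome 12, and 28 Serpinb genes, of which 12 are on chromosome 1 and 16 on chromosome 13. Joining neighbours no more than 200 kb apart placed all 73 in 5 clusters.

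H4K20me3 is trimethylation of lysine 20 on histone H4, a mark of heterochromatin that is laid down at many sites that also carry trimethylated H3K9. It was profiled by ChIP-seq in the mouse embryonic stem cell line dTKO, whose labelled genotype is Suv39h1fl/fl ; Suv39h2-/- ; Setdb1fl/fl, after auxin (100 μg/ml) plus dTAG13 (0.5 μM) for 0, 12, 24 or 48 h, with 3 replicates at each time. Auxin and dTAG13 each trigger the destruction of proteins that carry a matching tag, and Suv39h1, Suv39h2 and Setdb1 encode methyltransferases of H3K9. The labels do not say which tagged protein each agent acts on, or whether the line is 1 clone. All 12 libraries share the genotype and both agents, and the 0 h libraries are the baseline of the time course. The file analysed is 1 list of 28210 domains with positions only. It names no library and no time, so all values below are counts and shares of that list, with no replicate error, no test and no depth. The list holds no expression value against which the labelled cell type could be checked.

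Mup genes encode small lipocalins that the adult liver secretes, and the proteins pass into urine, where they bind pheromones or act as signals themselves. Serpins trap and inactivate proteases. Serpina proteins are mostly secreted by the liver into plasma, and Serpinb proteins are mostly kept inside cells. In mouse all 3 groups have expanded into rows of alike tandem copies, which lie on few chromosomes.

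Only 3 of the 58 members for which RefSeq gives a start window reached a domain with it, and their sequences are shown because they are the places where the mark met a member's start. A start window runs from 250 bases before to 50 bases after a transcription start. Across all protein-coding genes with a window, 1.45% (238 of 16457) reached a domain, so 3 of 58 is a small count to set beside that share. The 250 bases before the start are printed 5′ to 3′ from RefSeq (GRCm38.p6), with bases inside a domain in capitals. The Mup4 stretch (chr4:59960668-59960917, minus strand) has 67 bases inside a domain, and all lie at its far end from the gene. It is set beside Mup6 (chr4:60003231-60003480, plus strand), its closest match in these data at 91.6% identity, which has none.
Mup4: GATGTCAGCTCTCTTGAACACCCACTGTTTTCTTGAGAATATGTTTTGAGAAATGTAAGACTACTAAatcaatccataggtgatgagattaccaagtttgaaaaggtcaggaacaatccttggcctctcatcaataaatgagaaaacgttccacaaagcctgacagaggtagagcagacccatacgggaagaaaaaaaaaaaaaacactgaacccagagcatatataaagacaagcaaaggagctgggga
Mup6: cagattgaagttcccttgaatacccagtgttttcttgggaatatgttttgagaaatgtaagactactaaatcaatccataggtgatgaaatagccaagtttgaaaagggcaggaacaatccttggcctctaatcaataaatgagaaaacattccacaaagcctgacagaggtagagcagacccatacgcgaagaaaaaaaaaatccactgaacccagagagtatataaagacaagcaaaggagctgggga

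The Mup21 stretch (chr4:62150842-62151091, minus strand) lies wholly inside a domain. Its closest match, Mup3 (chr4:62087318-62087567, minus strand), is 92.7% identical and lies wholly outside. The list thus puts copies with nearly alike start sequences on different sides of a domain edge.
Mup21: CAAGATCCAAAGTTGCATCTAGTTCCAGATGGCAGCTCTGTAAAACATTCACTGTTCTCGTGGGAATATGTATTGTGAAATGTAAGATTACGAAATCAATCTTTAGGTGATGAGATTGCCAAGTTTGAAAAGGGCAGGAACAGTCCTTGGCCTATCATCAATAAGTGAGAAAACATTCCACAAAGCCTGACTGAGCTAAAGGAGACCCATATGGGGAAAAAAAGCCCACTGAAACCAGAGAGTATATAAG
Mup3: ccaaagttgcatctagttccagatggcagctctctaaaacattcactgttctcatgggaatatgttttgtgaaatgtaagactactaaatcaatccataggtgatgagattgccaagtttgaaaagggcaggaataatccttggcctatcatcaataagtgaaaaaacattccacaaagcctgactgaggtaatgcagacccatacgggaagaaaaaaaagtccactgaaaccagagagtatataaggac

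Serpinb1c, a tandem relative of the neutrophil elastase inhibitor gene Serpinb1a, has 2 annotated starts. The one at its outer 5′ end (chr13:32940601-32940850, minus strand) lies wholly inside a domain. The inner one (chr13:32898141-32898390, minus strand) lies wholly outside, with its start 40.7 kb from the nearest domain.
Serpinb1c outer start: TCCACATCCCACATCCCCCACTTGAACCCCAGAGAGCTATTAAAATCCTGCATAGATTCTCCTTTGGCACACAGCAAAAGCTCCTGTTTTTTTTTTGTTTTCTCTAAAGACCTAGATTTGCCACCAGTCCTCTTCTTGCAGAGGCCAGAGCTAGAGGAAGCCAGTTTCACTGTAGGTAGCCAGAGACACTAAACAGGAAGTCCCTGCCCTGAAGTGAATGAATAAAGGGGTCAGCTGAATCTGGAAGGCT
Serpinb1c inner start: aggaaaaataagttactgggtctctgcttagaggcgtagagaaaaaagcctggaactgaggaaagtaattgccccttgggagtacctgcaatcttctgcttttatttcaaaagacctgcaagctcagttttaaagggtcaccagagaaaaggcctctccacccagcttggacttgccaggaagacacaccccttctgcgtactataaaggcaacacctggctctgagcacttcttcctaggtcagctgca

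The motif TATATAA, a form of the TATA box, searched on both strands and chosen after the sequences had been seen, was found in 11 of 14 Mup windows, 1 of 32 Serpinb windows and 0 of 20 Serpina windows, against 2.98% of the 20085 windows of all protein-coding genes. The motif TTCNNNGAA, the short palindrome that STAT factors are known to bind, read the same way, was found in 7 of 20 Serpina windows, 3 of 32 Serpinb windows and 0 of 14 Mup windows, against 6.66% of all windows. Some genes have more than 1 window. The Mup windows were also poor in CG dinucleotides, with a median of 2 per window, as were Serpina (3) and Serpinb windows (1.5), against 10 over all windows.

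The sequence between the genes was far more often inside domains than the gene bodies were. Over the 5 clusters, 4.80% of the 931.7 kb of member bodies lay in domains, against 23.3% of the 3025 kb that lay outside every annotated gene. A body here runs from the first to the last annotated base of a gene, introns included. In Mup clusters the shares were 10.6% of bodies and 38.6% between genes. In Serpina they were 7.93% and 10.0%, and in the Serpinb clusters 1.95% and 11.2%. Over chromosomes 1 to 19 the same shares were 1.84% and 6.12%, so bodies held 0.301 times the share of the sequence between genes genome-wide. The ratio was 0.275 in Mup, 0.174 in Serpinb and 0.790 in Serpina. The contrast between body and surroundings is thus a general property of the list, and the Mup shares were 5.77 times the autosomal ones in bodies and 6.30 times between genes. The Mup body share rests on Mup20, since without Mup5 and Mup20 it was 0.179%.

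**Figure D1:**
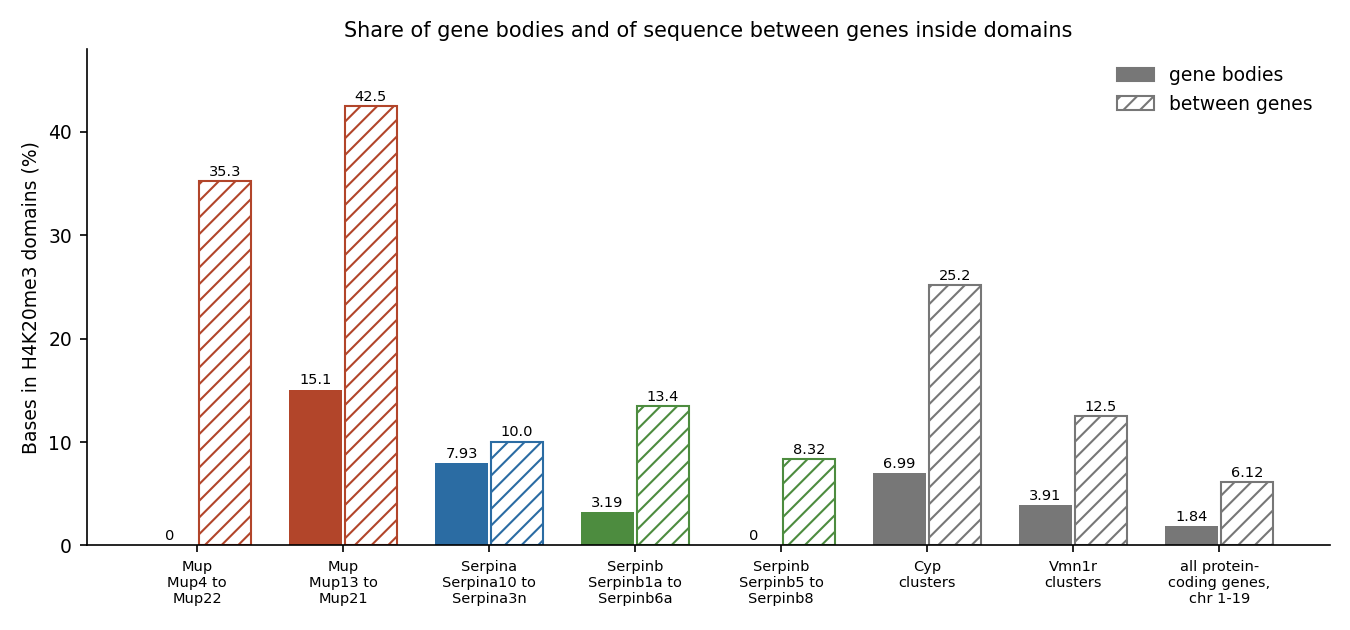
Share of bases inside H4K20me3 domains (vertical axis, percent) in gene bodies (filled bars) and in sequence outside every annotated gene (hatched bars) for the 5 clusters, the clusters of Cyp and Vmn1r genes, and chromosomes 1 to 19. Each bar is 1 value from the list, without error; bodies are below the sequence between genes in all 8 pairs, and the bodies of the clusters Mup4 to Mup22 and Serpinb5 to Serpinb8 hold 0%.

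Both Mup clusters were dense in domains. The cluster from Mup4 to Mup22 (chr4:59956804-60821597, 864.8 kb, 11 genes) held 48 domains, or 55.5 per Mb, over 32.0% of its length. None of its 11 bodies held a domain base, while 35.3% of the sequence between its genes did. All 11 bodies are under 5 kb, a length at which 2.74% of other genes met a domain. The cluster from Mup13 to Mup21 (chr4:61224308-62150841, 926.5 kb, 11 genes) also held 48 domains, or 51.8 per Mb, over 34.9% of its length. There the shares were 15.1% of bodies and 42.5% between genes. Chromosomes 1 to 19 had 10.7 domains per Mb, which covered 4.24% of their length.

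The serpin clusters were less dense. The Serpina cluster from Serpina10 to Serpina3n (chr12:103616675-104414334, 797.7 kb, 23 genes) held 15 domains, or 18.8 per Mb, over 9.14% of its length. The Serpinb cluster from Serpinb1a to Serpinb6a (chr13:32842092-34002794, 1161 kb, 16 genes) held 23 domains, or 19.8 per Mb, over 11.9%, with 3.19% of bodies and 13.4% between genes. The cluster from Serpinb5 to Serpinb8 (chr1:106861175-107608978, 747.8 kb, 12 genes) held 15 domains, or 20.1 per Mb, over 6.08%, with 0% of bodies and 8.32% between genes. All 5 clusters thus met domains, and their density was 1.76 to 5.18 times that of the autosomes.

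**Figure D2:**
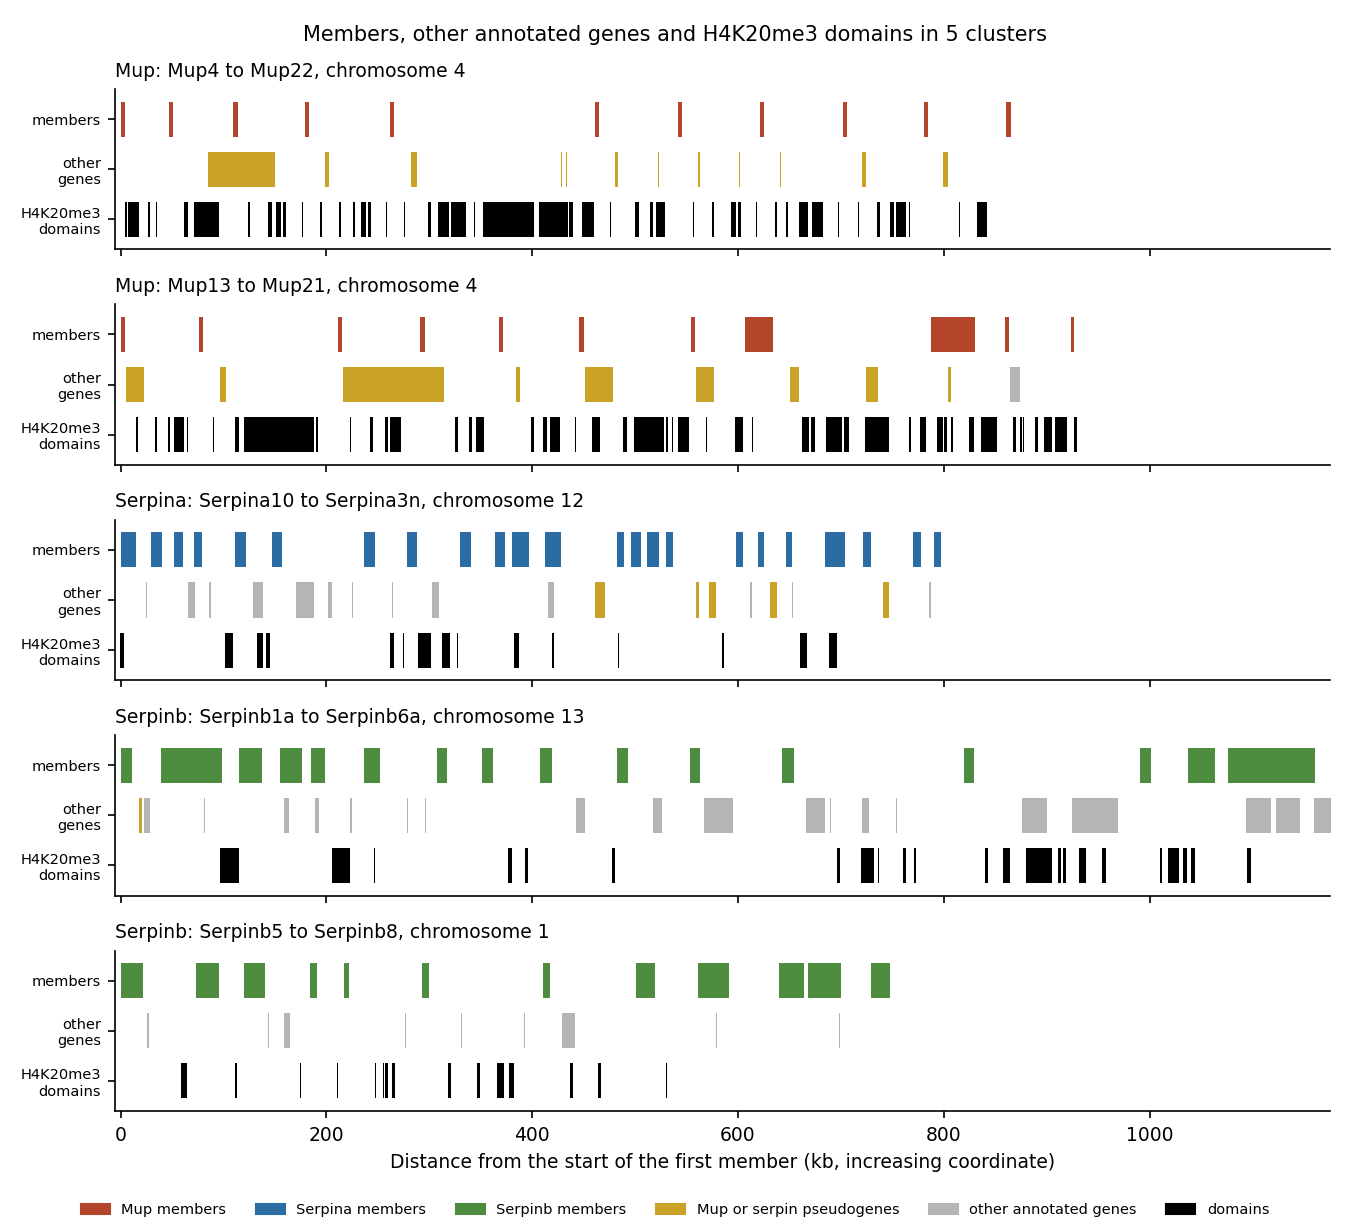
Maps of the 5 clusters along the distance from the start of the first member (horizontal axis, kb), with members in the upper row, pseudogenes and other annotated genes in the middle row and H4K20me3 domains in the lower row. Black blocks fill much of the spaces between the red Mup genes, with 48 domains in each Mup cluster, and are fewer in the serpin clusters, with 15, 23 and 15 domains.

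Of the 149 domains in the clusters, 111 (74.5%) touched no annotated gene and 15 (10.1%) touched a member. In the Mup clusters the counts were 74 and 6 of 96 domains, in Serpina 8 and 5 of 15, and in Serpinb 29 and 4 of 38. Median widths were 3.15 kb in Mup, 4.05 kb in Serpina and 3.15 kb in Serpinb clusters, against 2.85 kb for the domains of the autosomes. Domains wider than 10 kb numbered 16 in Mup, 1 in Serpina and 5 in Serpinb clusters. The widest of all, 68.1 kb (chr4:61343851-61411950), touched no gene and ended 23.8 kb short of Mup15. The next, 49.95 kb (chr4:60308551-60358500), also touched no gene and lay 59.5 kb from Mup9. A domain of 29.1 kb (chr4:61723501-61752600) lay 25.7 kb from Mup19 and touched no gene. A domain of 28.8 kb (chr4:60363151-60391950), 26.1 kb from Mup9, touched only the Mup pseudogenes Mup-ps28 and Mup-ps29. The widest outside the Mup clusters, 24.45 kb (chr13:33722251-33746700), lay over the pseudogenes Gm11392 and Gm11394, 50.7 kb from Serpinb6d. None of the 5 widest domains touched a member.

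A body shared at least 1 base with a domain in 12 of the 73 members (16.4%), against 13.9% of all 20560 protein-coding genes, a share near the background. By family it was 3 of 22 Mup genes (13.6%), 5 of 23 Serpina genes (21.7%) and 4 of 28 Serpinb genes (14.3%). No member had 50% or more of its body in domains, which is also rare elsewhere, at 132 of 20487 other protein-coding genes. Members are shorter than most genes, with median bodies of 4.01 kb in Mup, 9.73 kb in Serpina and 14.5 kb in Serpinb, against 17.6 kb for the other protein-coding genes, and long genes meet domains more often. Among bodies under 5 kb, all of them Mup genes, 1 of 20 members met a domain (5.00%), against 2.74% of other genes. From 5 to 10 kb it was 1 of 18 (5.56%), against 3.20%. From 10 to 20 kb it was 5 of 22 (22.7%), against 5.79%, and 4 of those 5 were Serpina genes. From 20 to 40 kb it was 2 of 10 (20.0%), against 11.7%. All 3 members of 40 kb or more met a domain, against 34.7%. In each class the members' share was above that of other genes, but on counts as small as 1. The 1 member under 5 kb was Mup21, through 141 bases, less than 1 step of the 150-base grid. With at least 150 bases required, no member of that class met a domain, which is below the share of other genes. The last class has no upper limit, and other genes run to 2271 kb, against 84.9 kb for the longest member.

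The typical Mup body, about 4 kb long, was free of the mark, as are most genes of that length. Of other genes under 5 kb, 2.74% met a domain. Apart from Mup5 and Mup20, the 20 Mup bodies run from 3.01 to 4.07 kb, and 0.141 of their 78.6 kb (0.179%) lay in domains. Those 141 bases belong to Mup21 (chr4:62147832-62150841), where they form the 5′ end of the gene, 4.68% of its body, and the edge of a 3.45 kb domain that runs on upstream. The other 19 bodies held none. Mup20 (chr4:62011337-62054143), which encodes darcin, a male pheromone protein that attracts females, was annotated over 42.8 kb and held 4 domains of 5.25, 3.60, 2.10 and 4.05 kb. They sum to 15.0 kb, or 35.0% of its body, out of 15.7 kb of domain bases in all Mup bodies. Mup5 (chr4:61831319-61858043), annotated over 26.7 kb, held 1 domain of 600 bases, 2.25% of its body. Exons were not used here, so whether these domains lie in introns was not analysed.

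Among the Serpina genes, which encode secreted inhibitors, 5 bodies met a domain. Serpina3j (chr12:104300722-104320586), a mouse copy of the antichymotrypsin group, had the highest share of any member, 7.65 kb or 38.5%. Its domain began 4.63 kb from the outer 5′ end of the body. The annotated start lies further inside, and the domain ends 1.57 kb upstream of it. Serpina9 (chr12:103996615-104013652), known as centerin from germinal centre B cells, held 5.10 kb (29.9%). Serpina10 (chr12:103616675-103631490), an inhibitor of activated coagulation factor X that works with protein Z, held 2.88 kb (19.4%), at its lower-coordinate end, where the domain crosses out of the cluster. Serpina12 (chr12:104028769-104044443), which encodes the adipokine vaspin, held 1.95 kb (12.4%), in a stretch that the non-coding RNA gene Gm31271 also covers. Serpina5 (chr12:104099313-104106138), the protein C inhibitor gene, held 600 bases (8.79%), from 0.538 to 1.14 kb inside the outer 5′ end of its body. The annotated start of Serpina5 also lies further inside, 0.662 kb downstream of the domain. In 4 of these 5 the domain lay inside the body. Of these 4, the domain of Serpina5 lay nearest to an end of its gene.

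The Serpina1 genes, named after alpha-1-antitrypsin, the main plasma inhibitor of neutrophil elastase, lie in the part of the Serpina cluster with the most domains. None of the 6 bodies held a domain base, a count to be read against the 3.20% and 5.79% of other genes of 5 to 10 and 10 to 20 kb that met one. Of the cluster's 15 domains, 8 lay among them, between Serpina1f and Serpina11. These 8 were 1.50 to 13.2 kb wide and summed to 45.3 kb. Serpina1c lay 350 bases from the widest of them, Serpina1d 1.84 kb, Serpina1e 2.03 kb and Serpina1b 2.11 kb from their nearest domains, while Serpina1a lay 15.0 kb and Serpina1f 23.0 kb away. The 10 Serpina3 genes behaved otherwise: 1 met a domain, only 3 domains lay in their 301.6 kb stretch, and the median distance was 20.7 kb. The farthest Serpina member from a domain was Serpina3c, at 46.5 kb.

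Among the Serpinb genes, which encode intracellular inhibitors, 4 bodies met a domain, all on chromosome 13. Serpinb6c (chr13:33879816-33905726) held 3.90 kb (15.1%) and Serpinb6a (chr13:33917918-34002794), whose product is known to inhibit cathepsin G, held 3.90 kb (4.59%). The Serpinb6a domain also lies within the non-coding RNA gene 1110046J04Rik, and 0.367 kb upstream of an inner annotated start of Serpinb6a. Serpinb1b (chr13:33078504-33094380) held 1.20 kb (7.56%). Serpinb1c (chr13:32881218-32940628) held 1.83 kb (3.08%) at its 5′ end, the edge of an 18.0 kb domain (chr13:32938801-32956800) that fills the space to its neighbour and stops 10 bases before Serpinb6b (chr13:32956811-32979067). Serpinb1c is on the minus strand and Serpinb6b on the plus strand, so this domain lies between 2 genes that point away from each other, over the outer start of the first and just short of the body of the second. The annotated start of Serpinb6b lies further inside its body, 8.46 kb from the domain.

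The Serpinb9 genes, related to the granzyme B inhibitor Serpinb9 that protects cytotoxic cells, were free of the mark in all 8 bodies, with distances of 1.88 to 73.5 kb. So were the 4 Serpinb3 genes, related to the squamous cell carcinoma antigens, with distances of 5.46 to 19.6 kb. Both counts of 0 are near what other genes of like length gave, 3.20% from 5 to 10 kb and 5.79% from 10 to 20 kb. Of the cluster's 15 domains, 9 lay in the 232.8 kb between the outer ends of the Serpinb3 genes. Beyond Serpinb11 the same cluster had a stretch of 216.9 kb without a domain, which holds Serpinb7, Serpinb2, Serpinb10 and Serpinb8. This stretch is cut at the cluster's end, and the next domain lies 77.1 kb past Serpinb8. On chromosome 13 a stretch of 216.45 kb without a domain holds Serpinb9f, Serpinb9h and Serpinb9g. The longest such stretch of the Serpina cluster was 116.85 kb, and those of the Mup clusters, which hold more domains per Mb, were 47.4 and 52.5 kb.

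Members also lay nearer to domains than other genes did, in values not matched for length. The median distance from a body to the nearest domain was 9.05 kb over the 73 members, against 39.4 kb for the other protein-coding genes. A domain lay within 10 kb of 38 of 73 members (52.1%), against 27.1% of other genes. The median was 3.83 kb in Mup, 11.3 kb in Serpina and 10.9 kb in Serpinb. All 22 Mup genes lay within 20 kb of a domain, against 36.9% of other genes, and the farthest was Mup16 at 18.9 kb. The members without overlap that lay nearest to a domain were Serpinb6b at 10 bases, Mup4 at 183 bases, Serpina1c at 350 bases, Mup9 at 1345 bases and Mup19 at 1423 bases. The farthest were Serpinb10 at 125.3 kb, Serpinb2 (plasminogen activator inhibitor type 2) at 108.8 kb, Serpinb1a at 85.6 kb, Serpinb8 at 77.1 kb and Serpinb9h at 73.5 kb. All 5 of these are Serpinb genes.

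With distance from the Mup bodies the share of sequence in domains increased at each step. It was 4.38% within 1 kb of a body, 8.04% from 1 to 2 kb, 14.3% from 2 to 5 kb, 19.4% from 5 to 10 kb, 25.9% from 10 to 20 kb and 38.6% from 20 to 50 kb. Around Serpina bodies it was 2.66% within 1 kb and 18.3% from 10 to 20 kb, and 0.553% from 20 to 50 kb. Around Serpinb bodies it was 3.62% within 1 kb, 10.8% from 10 to 20 kb and 9.97% from 20 to 50 kb. Around all protein-coding genes it was 1.80% within 1 kb, 7.36% from 10 to 20 kb and 6.97% from 20 to 50 kb. In all 4 groups the share at 10 to 20 kb was above that within 1 kb, and among them the Mup genes alone had their highest share beyond 20 kb.

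**Figure D3:**
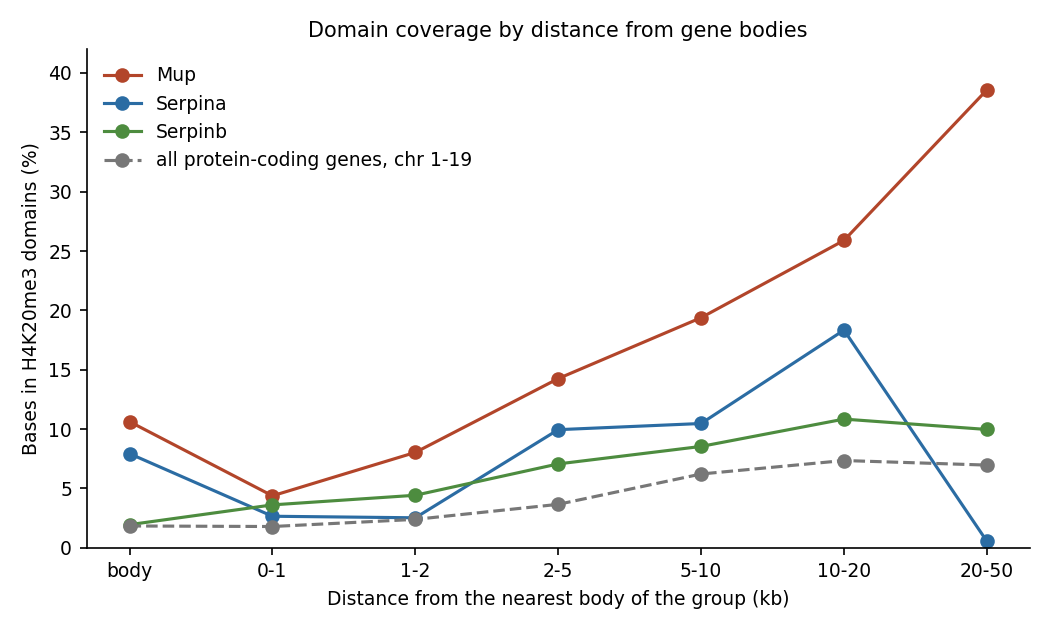
Share of bases in H4K20me3 domains (vertical axis, percent) in gene bodies and in 6 rings of distance from the nearest body of the group (horizontal axis, kb), other protein-coding bodies left out of the rings. The Mup line climbs to 38.6% in the last ring, the Serpina line falls to 0.553% there, and the autosomal line stays under 8%.

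Where RefSeq gives a strand, the 10 kb upstream and downstream could be told apart. In the 14 Mup genes 12.6% of the upstream and 20.3% of the downstream flank lay in domains. In 18 Serpina genes it was 6.04% and 10.8%. In 26 Serpinb genes the order was the other way, 10.8% upstream and 3.63% downstream. Over 16457 protein-coding genes it was 2.91% and 3.23%. The flank with the higher share therefore differed between the families, and strand was not given for 8 Mup, 5 Serpina and 2 Serpinb genes.

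Each gap between neighbouring Mup genes of a cluster held domains. The 20 gaps were 29.3 to 195.5 kb long, with 10 of them between 70 and 80 kb, and 14.2 to 63.2% of each lay in domains, with a median of 24.2%. They held 1 to 9 domains each. The 3 gaps with the highest shares were Mup8 to Mup9 (195.5 kb, 63.2%), Mup14 to Mup15 (131.7 kb, 56.8%) and Mup18 to Mup19 (104.2 kb, 53.1%). They are also 3 of the 4 longest gaps. The 402.7 kb between the 2 Mup clusters differed, with 5 domains over 4.92% and a stretch of 325.65 kb (chr4:60832951-61158600) without a domain, in which RefSeq gives only the gene Gm21286. Outside the clusters, 0% of the 250 kb below Mup4 and 6.60% of the 250 kb above Mup21 lay in domains, so both flanks were below the clusters themselves.

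The Mup genes lie in repeated units, and domains recurred at like distances in them. The layout was read on the higher-coordinate side of the 19 short Mup genes that are not on the plus strand, which is upstream for the 13 known to be on the minus strand. The first 10 kb above the body were free of domain bases in 13 of 19. In 10 of 19, a domain began between 10 and 11 kb above the body, namely above Mup7 (10.5 kb), Mup2 (10.3), Mup8 (10.1), Mup9 (10.7), Mup1 (10.7), Mup10 (10.4), Mup11 (10.5), Mup22 (10.6), Mup13 (10.7) and Mup19 (10.4). These domains were short, from 0.750 to 2.10 kb with a median of 1.13 kb. With only the 13 genes of known minus strand the count was 6. In 5 of 19 (Mup2, Mup1, Mup11, Mup13 and Mup16) another domain began between 29 and 30 kb above the body, 1.95 to 2.55 kb wide. Both distances were chosen after the positions had been seen.

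The other units departed from that layout. The nearest domain above began 0.183 kb from Mup4, 3.98 kb from Mup3, 7.52 kb from Mup15, 8.27 kb from Mup18 and 9.76 kb from Mup14. A domain covered the 5′ end of Mup21. On this side no domain began within 20 kb of Mup12, Mup16 or Mup17, where the first stood at 30.2, 29.6 and 27.4 kb. Their nearest domains lay below the body, at 13.2, 18.9 and 14.5 kb. Below the body, on the other side, the first domain lay at 1.35 to 19.5 kb with a median of 9.13 kb.

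**Figure D4:**
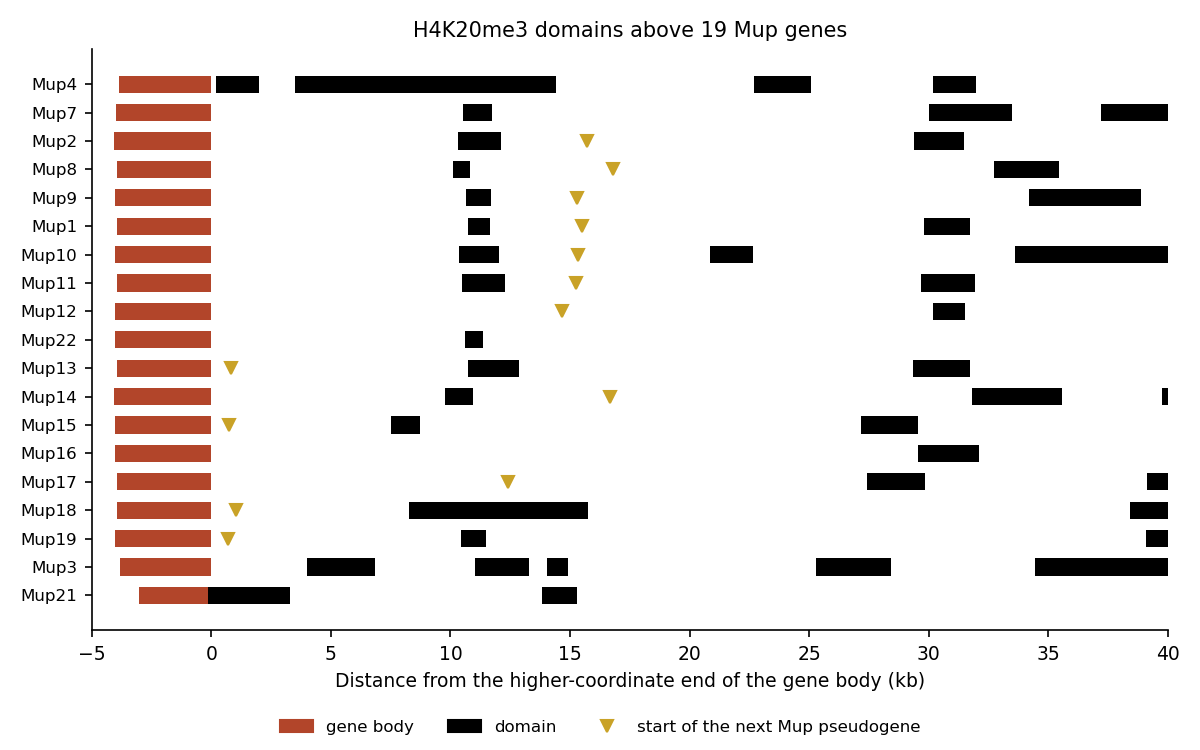
Domains (black) above the bodies (red) of 19 short Mup genes, aligned at the higher-coordinate end of each body (horizontal axis, kb), with a gold mark where the next Mup pseudogene begins. In 10 rows a short domain begins between 10 and 11 kb, and the space nearer the body is empty in 13 rows.

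The copies in these units are alike in sequence, which bears on how reads could be placed. Over 91 pairs of Mup start sequences the median identity was 90.8% and the highest 98.8%. Of the pairs aligned over at least 200 bases, 16 were at 95% or more. Medians were 55.6% in Serpina and 55.3% in Serpinb, with 2 and 4 such pairs. End gaps were left out of each identity. The medians take all pairs, also those aligned over few positions, such as 3 for Serpinb9h with Serpinb6c. How reads that match several places were treated is not stated in the labels, and the part of read placement in the Mup domains was not tested.

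The genes named as Mup pseudogenes (Mup-ps and a number) had 20.6% of their bases in domains, between the shares of bodies and gaps. RefSeq types 2 of them, Mup-ps12 (17.1 kb in domains) and Mup-ps16 (1.05 kb), as protein-coding and 1, Mup-ps15 (7.50 kb), as a long non-coding RNA, and together these hold a large part of the 55.9 kb. Of the 21 in the clusters, 11 met a domain. The 9 of 1 to 6 kb, the size nearest to a Mup gene, resembled the genes, since 1 met a domain. Of 5 fragments under 1 kb, 4 lay wholly inside one (Mup-ps24, Mup-ps26, Mup-ps28 and Mup-ps29). Of the 7 over 6 kb, 6 met one, and Mup-ps19 (10.99 kb) was wholly covered. The serpin pseudogenes of the clusters, 5 on chromosome 12 and 1 on chromosome 13, held no domain base.

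Other tandem families were compared to see whether the contrast is particular to Mup and serpin genes, and it was not. In clusters of Cyp genes, which encode cytochrome P450 enzymes, 6.99% of bodies and 25.2% of the sequence between genes lay in domains, a ratio of 0.277. In clusters of Vmn1r genes, which encode vomeronasal receptors that detect pheromones, the shares were 3.91% and 12.5%, a ratio of 0.312. The clusters of 3 or more genes held 33.6 domains per Mb for Cyp and 23.9 for Vmn1r. Both densities are below those of the Mup clusters and above those of the serpin clusters. A body met a domain in 37 of 99 Cyp genes (37.4%) and 10 of 228 Vmn1r genes (4.39%), against 13.9% of all protein-coding genes. Their median bodies were 22.5 and 0.924 kb. Among genes outside the rule, 11.7% of those of 20 to 40 kb and 2.74% of those under 5 kb met a domain. Nearness to domains was not particular to the members either. The median distance from a body to a domain was 5.89 kb in Cyp and 13.4 kb in Vmn1r genes, against 9.05 kb over the members. A domain lay within 20 kb of 72.7% of Cyp and 60.5% of Vmn1r genes. No test of these differences was possible with 1 list.

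Relatives outside the clusters were farther from the mark than the members, at distances nearer to the 39.4 kb median of other protein-coding genes. Of 11 serpins of other families, among them Serpinc1 (antithrombin), 0 met a domain, and their median distance was 46.5 kb. Of 22 other lipocalins, 1 met a domain, and their median distance was 53.4 kb. Many of these lipocalins lie close together on chromosome 2, from Ptgds to Lcn9, so their distances are not separate values. The lipocalin gene that met a domain was Obp2b (chr2:25714109-25740124), an odorant-binding protein gene with 9.45 kb (36.3%) of its 26.0 kb body in it. Over all protein-coding genes 13.9% had overlap, a share not matched for length. Median bodies were 12.6 kb in these serpins and 3.43 kb in these lipocalins. Of genes outside the rule, 5.79% of those of 10 to 20 kb and 2.74% of those under 5 kb had overlap.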

How the data were processed

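The authors' deposited file used here is 1 list of domains, each given as its place on a chromosome, so its values are positions and no signal. Per the file name, the authors called the domains with RSEG, which segments the genome into enriched and background bins. The RSEG version and settings, and which of the libraries entered the call, are not given in the sources used. The submitters' processing notes name bedtools, deepTools, SAMtools 1.1 and Bowtie2 2.3.4.1, and the builds GRCm38, mm10, mm9 and dm6. Inputs of the samples were not used here. All but 1 of the 28210 domains begin and end on a grid of 150 bases, which limits the precision of each distance and share, and the depth of the libraries is unknown.

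Genes came from a RefSeq table of GRCm38.p6, the same sequence as mm10, without exons, and genes that start in the first 3 Mb of a chromosome were left out. Strand and start sequences came from a RefSeq table of start windows, in which 58 of 73 members matched by gene identifier. Body, pseudogene and between-gene bases were counted once each within clusters, and between-gene sequence lies outside every annotated gene. Ring and flank shares count all bases at that distance except other protein-coding bodies in rings. Identity is that of pairwise alignments of the 250 bases before the start (Biopython 1.88). Python 3.11.15, numpy 2.4.6, pandas 2.3.3 and matplotlib 3.10.9 were used, and the interval code was tested on simulated data.

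The members, lists and measures were chosen with earlier results of these data known. Named are the members with a domain, the first and last member of each cluster, the 5 nearest and 5 farthest members without one, the 5 widest domains, and pathway genes with a domain. Other genes and stretches named were chosen after their values were seen. The 12 samples were grouped by time from the labels, but no comparison of times was made, since the list names no sample. The planned identity of proteins was replaced by that of start sequences, because protein sequences were not used here. Alternatives tried were the overlap rule, widened bodies, merged or only wide domains, the definition of between-gene sequence, the joining distance, wider clusters and leaving out each cluster, with 2 more added after the data were seen.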

Additional observations from a re-analysis of the deposited data

How the results depend on the processing

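No paired analysis was possible because the list names no sample or replicate. The share of bodies in domains stayed below that of the sequence between genes in all 37 comparisons, made over all members and within each family. Differences (body minus between) ran from -29.6 percentage points (Mup, domains merged) to -1.56 (Serpina, 100 kb added to clusters). Over all members together they ran from -22.1 to -11.8. Most comparisons changed only 1 of the 2 shares and kept the main value of the other. Some changed neither, such as joining within 100 or 500 kb in Serpina, so the 37 are not separate checks. The count of 12 members with a domain became 0 when 50% of the body was required, 38 with 10 kb added on either side and 7 without the Serpina cluster. The body share of 4.80% became 5.55% with domains closer than 5 kb merged, 4.11% with domains of the median width or more, and, leaving out 1 cluster, 6.24% (Serpinb5 to Serpinb8), 3.51% (Mup13 to Mup21), 3.78% (Serpina) and 5.73% (Serpinb1a to Serpinb6a). The between-gene share of 23.3% became 26.3% merged, 20.1% with wide domains, 22.7% outside member bodies only, 16.6% and 21.2% with neighbours joined within 100 and 500 kb, 21.0% with 100 kb added to clusters, and 26.4% (Serpinb5 to Serpinb8), 19.5% (Mup4 to Mup22), 18.4% (Mup13 to Mup21), 25.9% (Serpina) and 26.2% (Serpinb1a to Serpinb6a) without 1 cluster. Joining within 100 kb gave 12 clusters, of which 11 met a domain. Without the 4 longest bodies of their families (Mup5, Mup20, Serpinb1c and Serpinb6a), an alternative chosen after seeing the data, 8 members met a domain. The cause of these shifts was not tested beyond what each alternative leaves out.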
